A study of Mus musculus with 8 samples.

Results

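The nuclear-encoded subunits of the mitochondrial respiratory chain were followed from primary 4T1.2 mammary tumours to their matched bone metastases. Members were all probe sets whose only gene symbol in the platform annotation began with Nduf followed by a, b, c, s or v (the Ndufaf assembly factors were left out), was Sdha, Sdhb, Sdhc or Sdhd, or began with Uqcr, with Cox4 to Cox8 followed by a letter, or with Atp5. These were 82 of 18193 genes, measured by 169 of 34945 probe sets. Complex I had 36 genes and 78 probe sets, complex II 4 and 9, complex III 8 and 16, complex IV 17 and 35, and complex V, the ATP synthase, 17 and 31. The choice used symbols and no measured values. It took in Cox7a2l, a factor of supercomplex assembly rather than a structural subunit, and it placed Ndufa4 with complex I, although structural work now places this protein with complex IV. It left out Cyc1, the cytochrome c1 subunit of complex III, whose values are given with the electron carriers.

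The arrays were 8 in number, 4 of tumour cells from the mammary gland (primary) and 4 of tumour cells from the spine (bone metastasis). 4T1.2 is a clonal line of the 4T1 mouse mammary carcinoma that spreads spontaneously to bone, and here it grew in syngeneic BALB/c mice with no drug or further genetic change named. Each of 4 mice gave a primary tumour and a spine metastasis, so that the replicate number of an array is the number of its mouse. Per the labels the epithelial tumour cells were isolated before RNA extraction, and the values are RMA log2 signals, on which a step of 1 is a 2-fold difference. The comparison asked how expression in the bone lesion departs from that in the tumour of origin.

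The respiratory chain takes electrons from NADH at complex I and from succinate at complex II, passes them through complex III and cytochrome c to oxygen at complex IV, and uses the proton gradient that complexes I, III and IV build to make ATP at complex V. Complex II has no subunit in the mitochondrial genome and is also the succinate dehydrogenase of the citric acid cycle, whereas the other complexes join a few mitochondrially encoded subunits to the many nuclear-encoded ones described here. Promoters of the nuclear genes are known for sites of the transcription factors NRF1, GABP (its DNA-binding subunit is GABPA) and YY1.

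Because a shared promoter element could be read beside the signals, RefSeq promoters of assembly GRCm38.p6 (250 bases before to 50 bases after a gene's start) were matched by symbol to 67 of the 82 genes, with 72 promoters. The letters CGCATGCG (NRF1), CCGGAAG (GABPA) and AAGATGGCG (YY1) were searched on both strands, and no overlap between them was removed. At least 1 of the 3 was present in 34.7% of the members' promoters and in 11.5% of all 32851 promoters of this length, whose median GC content was 58.5% and 52.67%. CGCATGCG was in 11.1% against 1.87%, CCGGAAG in 23.6% against 8.86%, and AAGATGGCG in 8.33% against 1.4%. A match describes letters, not a bound site. Promoters of genes called only higher in metastasis and of genes called only lower in it both held them, 6 of 23 and 5 of 9. So did 14 of 36 promoters of member genes with no call, and 0 of 4 of genes called in both directions. The 120 bases before the start are shown for the 6 genes called in 1 direction whose match lay wholly within them, so that 3 genes called higher can be set beside 3 called lower. Capitals mark the match (CTTCCGG is CCGGAAG on the other strand), all sequences are in the gene's direction, and every match here is of the GABPA letters except the NRF1 letters in Atp5k.
Atp5k (higher, chr5:108434400-108434519, minus strand): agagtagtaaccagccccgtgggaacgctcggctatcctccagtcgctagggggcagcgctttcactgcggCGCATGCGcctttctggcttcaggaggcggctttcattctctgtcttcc
Cox6a1 (higher, chr5:115348959-115349078, minus strand): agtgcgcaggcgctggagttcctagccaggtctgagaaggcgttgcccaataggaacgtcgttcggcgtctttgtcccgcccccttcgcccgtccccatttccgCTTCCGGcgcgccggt
Ndufb7 (higher, chr8:83566638-83566757, plus strand): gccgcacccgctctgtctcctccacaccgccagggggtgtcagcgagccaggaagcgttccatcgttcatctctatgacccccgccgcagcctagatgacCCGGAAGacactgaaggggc
Ndufs3 (lower, chr2:90904722-90904841, minus strand): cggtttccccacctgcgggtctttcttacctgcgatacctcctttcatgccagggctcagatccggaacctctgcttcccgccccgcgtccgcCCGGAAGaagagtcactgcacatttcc
Sdhd (lower, chr9:50603850-50603969, minus strand): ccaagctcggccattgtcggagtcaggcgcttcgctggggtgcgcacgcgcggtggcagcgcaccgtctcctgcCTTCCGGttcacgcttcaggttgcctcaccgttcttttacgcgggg
Uqcrh (lower, chr4:116075071-116075190, minus strand): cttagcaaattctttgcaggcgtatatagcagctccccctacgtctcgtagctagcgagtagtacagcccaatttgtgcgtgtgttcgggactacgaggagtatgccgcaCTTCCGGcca
The GABPA letters stood in this stretch of Cox6a1 and Ndufb7, called higher, as in that of Ndufs3, Sdhd and Uqcrh, called lower.

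Bone metastases differed from primary tumours at 58 of the 169 member probe sets, with 41 higher and 17 lower by limma with Benjamini-Hochberg adjustment over all 34945 probe sets and a threshold of 0.05. Over all probe sets 20.6% were called, 8.72% higher and 11.9% lower. Of the members 24.3% were higher and 10.1% lower. Their median log2 difference was 0.12, beside 0.088 over all probe sets. Asking also for a 2-fold difference left 20 higher and 14 lower. The groups did not overlap at 44.4% of the members, beside 28.3% of all probe sets; these were 56 of the 58 called probe sets and 19 that were not called. Of the called probe sets 57 moved the same way in all 4 mice, all but Ndufb1. A call made from these same arrays favours such agreement. Called or not, 60 of the 169 members were higher in all 4 mice and 33 lower, and 43.0% of all probe sets moved 1 way. Among the 115 member probe sets with a mean log2 signal of at least 8, 34 were higher and 13 lower. The shares over all probe sets this bright were 13.0% and 22.8%. The medians were 0.09 for the members and -0.39 for all. At this brightness the groups did not overlap at 61 of the 115 members and at 2730 of all 6578 probe sets. In all 4 mice 46 of the 115 were higher and 27 lower, beside 1305 and 2443 of the 6578. In a bulk sample fewer cells of a type and less RNA per cell cannot be told apart. Scaling each array to its 75th percentile moved the median of all probe sets from 0.09 to 0.29 and the lower share of all calls from 57.8% to 44.5%, and gave 55 members higher and 17 lower.

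**Figure D1:**
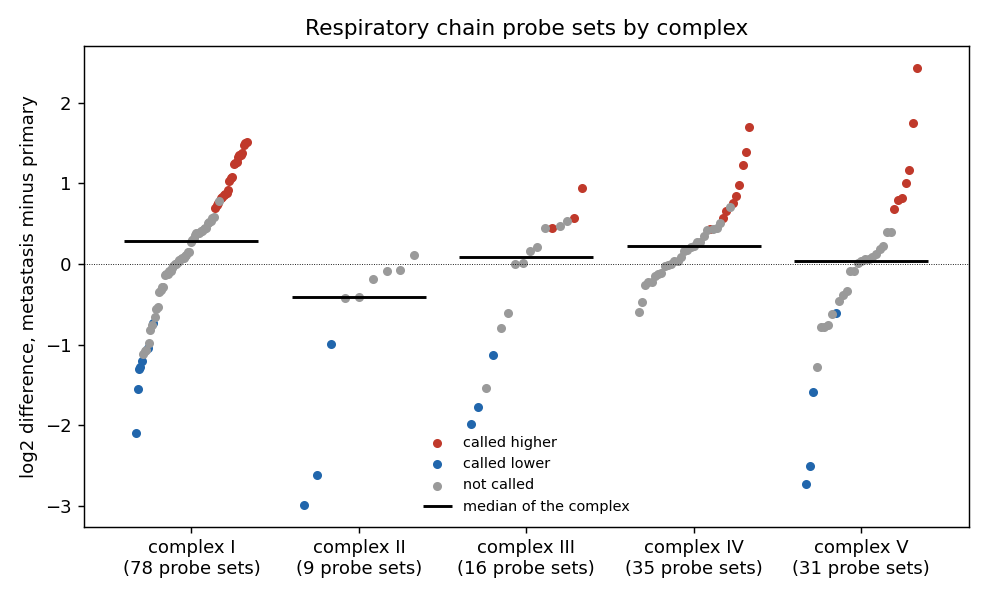
Log2 difference (metastasis minus primary, 4 arrays a group) of each of the 169 member probe sets, ordered within its complex; colours mark calls at an adjusted p under 0.05 and bars the median of each complex. Complex II has 3 lower and no higher calls, complex IV has 9 higher and no lower calls, and the other complexes have both.

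The complexes differed in their counts. Complex I had 22 probe sets higher and 7 lower, with a median of 0.29. That direction turned with the kind of probe set, by the ending of its identifier: the 39 plain _at probe sets of complex I had 4 higher and 7 lower and a median of -0.12, and the 33 ending in _a_at or _x_at had 16 higher and 0 lower and a median of 0.69. Complex IV had 9 higher and 0 lower, with a median of 0.23, of which 1 was on 16 plain probe sets (median 0.064) and 8 on 17 ending in _a_at or _x_at (median 0.44). Complex II had 0 higher and 3 lower of 9 probe sets and a median of -0.41, and Sdhb, 1 of its 4 genes, was not called. Complex III had 3 and 3 (median 0.09), and complex V had 7 and 4 (median 0.04). The medians of single mice were above 0 in all 4 mice for complexes I and IV (0.20 to 0.49 and 0.18 to 0.32) and below 0 in all 4 for complex II (-0.28 to -0.46). Those of complexes III and V lay on both sides of 0. These medians are descriptions, and the difference between complexes was not tested. Counting each gene by its brightest probe set, 25 of 82 genes were higher and 8 lower, beside 9.72% and 12.1% of all genes. By complex the higher and lower genes were 15 and 4 in complex I, 0 and 2 in II, 2 and 1 in III, 5 and 0 in IV, and 3 and 1 in V.

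In complex I, the NADH dehydrogenase, the rises came from both the catalytic core and the accessory subunits that surround it. Of the 16 probe sets of 6 nuclear-encoded core genes, 6 were higher and 2 lower. Ndufs7, a core subunit that carries an iron-sulphur cluster, had signals of 10.72, 10.28, 10.43 and 10.30 in primary tumours 1 to 4 and 11.74, 11.30, 12.50 and 12.27 in metastases 1 to 4 (probe set 1424313_a_at). The groups did not overlap, and the rise was 1.52 (SE 0.26, adjusted p = 0.0062 by limma). Its other probe set 1451312_at had a difference of -0.35 (adjusted p = 0.29), with 0 of 4 mice higher.

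Ndufs8, another iron-sulphur core subunit, had 6 probe sets, of which 1434579_x_at and 1455283_x_at rose by 1.26 (SE 0.16) and 1.24 (SE 0.17). The other 4 were not called and ran from -0.55 (1423908_at) to 0.58 (1434213_x_at). Ndufv2, which holds a cluster beside the flavin site, rose on 1452692_a_at by 0.84 (SE 0.13, adjusted p = 0.0043 by limma), while 1438159_x_at had 0.41 and 1428179_at -0.98, neither called. Each of these genes therefore had a probe set with a rise and at least 1 that gave none.

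Ndufv1, the subunit that binds NADH and the flavin, was called in both directions. Probe set 1456015_x_at gave 10.89, 10.77, 11.21 and 11.08 in primary tumours and 11.85, 11.57, 12.09 and 11.92 in metastases, a rise of 0.87 (SE 0.16, adjusted p = 0.0079 by limma). Probe set 1415967_at gave 9.91, 9.93, 10.57 and 10.39 against 9.74, 9.17, 8.59 and 8.08, so that it fell by 1.30 (SE 0.35, adjusted p = 0.032). Both sets of arrays separated completely, in opposite directions, and metastases 3 and 4 were the lowest on 1415967_at. Its fall did not pass with the mouse as a block (adjusted p = 0.075) or without any of 6 arrays (all 4 primary arrays and metastases 3 and 4), with differences of -1.40 to -1.03. The third probe set, 1415966_a_at, rose by 0.69 (SE 0.18), a call lost without any of 5 arrays (primary 1, 2 and 4 and metastases 3 and 4; differences 0.60 to 0.75).

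Of the 16 core probe sets 10 had differences above 0 and 6 below it. Ndufs3 and Ndufs1 had 1 probe set each, with a negative difference. Ndufs3, next to the ubiquinone-reducing part, had 10.34, 9.77, 10.40 and 10.40 in primary tumours and 9.47, 9.0, 8.65 and 7.59 in metastases (1423737_at). It fell by 1.55 (SE 0.37, adjusted p = 0.022 by limma), a call lost without primary arrays 1, 3 or 4 or metastasis 3 (differences -1.54 to -1.49). Ndufs1, the largest core subunit, had a difference of -1.07 (SE 0.42, adjusted p = 0.11), with 8.38 and 8.79 in metastases 1 and 2 and 7.37 and 6.68 in metastases 3 and 4 against 8.77 to 9.06 in primary tumours. The Ndufs1 groups overlapped.

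Of the 62 accessory probe sets of complex I, 16 were higher and 5 lower. Ndufa13, an accessory subunit also known as GRIM-19, rose by 1.5 (SE 0.20, adjusted p = 0.0021 by limma), from 11.64, 10.99, 10.95 and 11.17 to 12.90, 12.35, 12.74 and 12.78, a 2.83-fold difference. All 4 metastases exceeded all 4 primary tumours. The Ndufb subunits, in the membrane arm, had 6 higher and 2 lower of 21 probe sets and a median of 0.43. Among them Ndufb10 rose by 1.47, Ndufb11 by 1.33 and 1.26 on 2 of 3 probe sets, Ndufb7 by 1.35 on 1 of 2 and Ndufb8 by 0.74 on 1 of 2. The Ndufa subunits had 8 higher and 2 lower of 24 probe sets, and the Ndufc subunits 0 of 6 called. Ndufv3, a small accessory subunit beside the flavin site, rose by 1.35. Ndufb10, Ndufb11, Ndufb7, Ndufb8 and Ndufv3 fell outside the naming rule and were chosen after their values were seen, as were Ndufa1, Ndufa2, Ndufa5, Ndufa9, Ndufa10, Ndufab1, Ndufb1, Ndufb2 and Ndufb9 below.

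Further rises among accessory subunits were those of Ndufa1 (0.92), Ndufa2 (0.82), Ndufa5 (1.37, on 1417285_a_at) and Ndufa10, whose probe sets both rose (1.08 and 0.86). The Ndufa5 call was lost with the mouse as a block (adjusted p = 0.060) and without primary arrays 2, 3 or 4 or metastases 3 or 4 (differences 1.17 to 1.42). The Ndufa10 calls were lost without primary array 4, that of 1418068_at also without primary 3 and that of 1448934_at without primary 2 (differences 0.81 to 1.07). Ndufab1, the mitochondrial acyl carrier protein, rose by 1.07 on 1 of 5 probe sets and Ndufb2 by 1.04 on 1 of 3. The Ndufab1 call was lost with the mouse as a block (adjusted p = 0.052) and without any primary array or metastases 1 or 2 (0.85 to 1.16), and the Ndufb2 call without any primary array or metastases 3 or 4 (0.84 to 1.10). The falls were those of Ndufs4, Ndufb9 (-1.28), Ndufb1 (-1.20), Ndufa9 (-1.04) and Ndufa12. Ndufa9 and Ndufb1 did not pass with the mouse as a block (adjusted p = 0.080 and 0.062), Ndufa9 not without any primary array or metastases 3 or 4 (-1.13 to -0.82), and Ndufb1 not without primary arrays 2, 3 or 4 or metastasis 3 (-1.16 to -1.06). Ndufs4, an accessory subunit needed for a stable complex, had the largest fall of complex I: 8.92, 8.89, 8.95 and 9.20 in primary tumours and 7.81, 7.40, 6.75 and 5.62 in metastases (1448959_at), a difference of -2.09 (SE 0.42, adjusted p = 0.011 by limma). The groups separated, and metastases 3 and 4 were again the lowest. The other 3 probe sets of Ndufs4 ran from -0.13 to 0.51 and were not called. Ndufa12, an accessory subunit at the junction of the complex's arms, rose on 1455806_x_at (0.88, SE 0.18) and 1433513_x_at (0.76, SE 0.18), fell on the dim 1425919_at (-0.73, SE 0.22) and gave 0.02 on 1418814_s_at. The fall on 1425919_at was lost with the mouse as a block (adjusted p = 0.093 by limma) and without any of 7 arrays (all but metastasis 3, differences -0.80 to -0.56). On this probe set the 4 metastasis signals and the primary mean (5.02) were under the array median, so the size of the fall is not exact. Only primary array 4 (5.54) was above it. The rise on 1433513_x_at was lost without primary arrays 2, 3 or 4 (differences 0.69 to 0.73).

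**Figure D2:**
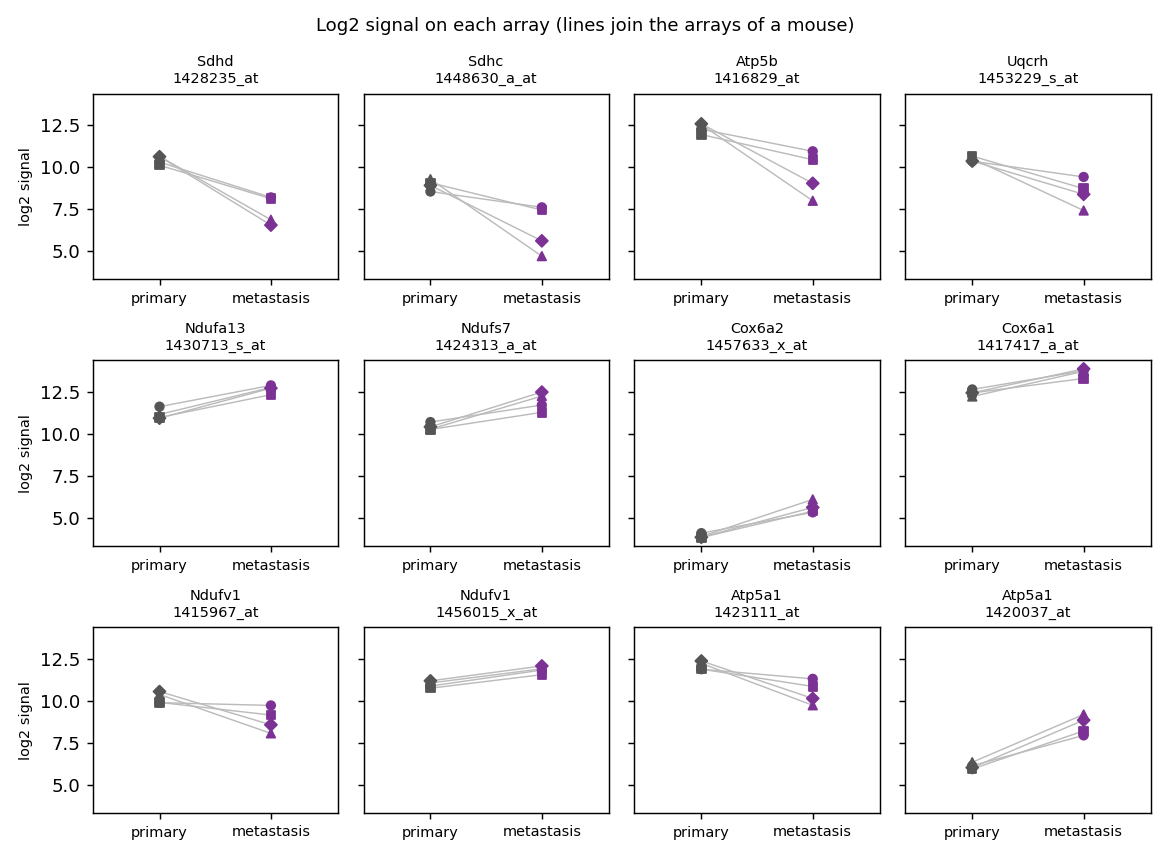
Log2 signal on each array for 12 probe sets, primary on the left and metastasis on the right, with a line joining the arrays of a mouse (circle mouse 1, square mouse 2, diamond mouse 3, triangle mouse 4). The top row fell, the middle row rose, and the bottom row shows Ndufv1 and Atp5a1, each with a probe set that fell and another that rose.

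Complex II, succinate dehydrogenase, had its calls in the lower direction on 3 of its 4 genes. Sdhd, which anchors the complex in the membrane and helps bind ubiquinone and haem, had the largest difference of all members. Its signals were 10.31, 10.12, 10.63 and 10.65 in primary tumours and 8.21, 8.13, 6.56 and 6.87 in metastases (1428235_at). It fell by 2.98 (SE 0.39, adjusted p = 0.0020 by limma), or 7.90-fold, and every metastasis was below every primary tumour. Its other probe set 1437489_x_at had a difference of -0.19 (adjusted p = 0.35).

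Sdhc, the other membrane anchor, fell by 2.61 (SE 0.62, adjusted p = 0.020 by limma) on 1448630_a_at, from 8.55, 9.08, 8.92 and 9.29 to 7.61, 7.45, 5.62 and 4.71. Metastases 3 and 4 were the lowest. The call was lost without primary arrays 2, 3 or 4 or metastasis 3 (differences -2.62 to -2.37), and 1435986_x_at gave -0.41 with 0 of 4 mice higher (adjusted p = 0.15). Sdha, the flavin subunit that oxidises succinate, fell by 0.99 (SE 0.28, adjusted p = 0.040 by limma) on 1426688_at, from 10.89, 10.68, 10.97 and 11.12 to 10.55, 10.18, 9.83 and 9.14. That call did not pass with the mouse as a block (adjusted p = 0.078) or without any of 5 arrays (all 4 primary arrays and metastasis 3; differences -1.07 to -0.92), and the other 3 Sdha probe sets ran from -0.08 to 0.12. Sdhb, the iron-sulphur subunit, had -0.42 (SE 0.29, adjusted p = 0.32), with 11.33 in metastasis 1 above the primary range of 10.69 to 11.04 and 9.91 to 10.38 in the other 3 metastases below it. No probe set of complex II was called higher.

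Complex III, the cytochrome bc1 complex, had 3 higher and 3 lower calls. Uqcrh, the acidic hinge subunit that helps cytochrome c dock, fell on both of its probe sets, by 1.99 (SE 0.37, adjusted p = 0.0080 by limma) and 1.13 (SE 0.33, adjusted p = 0.044). On 1453229_s_at the signals were 10.36, 10.66, 10.37 and 10.52 in primary tumours and 9.42, 8.73, 8.39 and 7.42 in metastases. Uqcrb, which helps form the ubiquinone site, fell by 1.77 (SE 0.48, adjusted p = 0.034) on 1416337_at, from 9.65, 10.07, 9.24 and 9.82 to 9.22, 8.26, 7.50 and 6.73. Both genes separated the groups on these probe sets. The smaller Uqcrh fall, on 1452133_at, was lost without any primary array or metastases 2 or 3 (differences -1.20 to -1.04). The Uqcrb call was lost without any of 6 arrays (all 4 primary arrays and metastases 3 and 4; differences -1.92 to -1.37), and 1455997_a_at of the same gene gave 0.02 (SE 0.13).

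Uqcrc2, a core protein of complex III, rose by 0.94 (SE 0.18, adjusted p = 0.0097 by limma) on 1435757_a_at, whereas 1428631_a_at gave -0.79 (adjusted p = 0.066). Its partner Uqcrc1 had -0.60 (SE 0.22, adjusted p = 0.085) and the Rieske iron-sulphur protein Uqcrfs1 had -1.53 (SE 0.49, adjusted p = 0.057), from 10.92, 11.02, 11.05 and 11.10 to 10.39, 10.53, 8.67 and 8.37. The Uqcrfs1 groups did not overlap although the test missed the threshold. Uqcr10, a small subunit, rose by 0.57 on 1434341_x_at and 0.45 on 1424364_a_at. Both calls were lost with the mouse as a block (adjusted p = 0.089 and 0.095), the former also without primary arrays 1, 3 or 4 (differences 0.53 to 0.61) and the latter without any primary array or metastasis 2 (0.43 to 0.49).

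Complex IV, cytochrome c oxidase, had 9 higher calls on 6 genes and no lower call on 35 probe sets. Cox6a1, the ubiquitous form of a subunit that regulates the enzyme, rose by 1.22 (SE 0.17, adjusted p = 0.0023 by limma) on 1417417_a_at, from 12.66, 12.45, 12.46 and 12.24 to 13.77, 13.32, 13.89 and 13.74. Its other probe set gave 0.42 (adjusted p = 0.097). Cox7a2, a ubiquitous small subunit, rose by 0.98 (SE 0.16) on 1416970_a_at and had -0.13 on 1416971_at. Cox5a, which binds near the regulatory matrix domain, rose by 0.76 on 1415933_a_at and 0.65 on 1439267_x_at and had -0.26 on 1448153_at. The Cox5a rise on 1439267_x_at was lost without primary arrays 2, 3 or 4 or metastases 1 or 2 (differences 0.55 to 0.66). Of the 9 higher calls of complex IV, 8 were on probe sets ending in _a_at or _x_at. Cox6c and Cox5b, small structural subunits, rose by 0.85 on 1 of 2 and by 0.57 and 0.43 on 2 of 6 probe sets; they too were chosen after their values were seen. The Cox6c call was lost without primary arrays 3 or 4 (0.76 to 0.81), and both Cox5b calls were lost with the mouse as a block (adjusted p = 0.052 and 0.10) and without primary array 4 (0.54 and 0.39), the smaller one without any of the 8 arrays (0.38 to 0.50).

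Other ubiquitous subunits of complex IV were not called. Cox4i1, the largest nuclear-encoded subunit, had a difference of -0.14 (SE 0.23), with 13.19, 12.99, 12.68 and 12.09 in metastases around 12.86 to 12.91 in primary tumours. Cox8a had -0.02, 0.04 and -0.01 on its 3 probe sets, with standard errors of 0.12 to 0.13. Cox6b1 had 0.44 (SE 0.16, adjusted p = 0.084 by limma, 4 of 4 mice higher) and -0.22, and Ndufa4 had -0.76 (SE 0.39). Counted with Cox6a1 and Cox7a2, these ubiquitous forms had 2 of 11 probe sets called, both higher.

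The isoforms that are restricted to certain tissues or respond to hypoxia (Cox4i2, Cox6a2, Cox6b2, Cox7a1, Cox7b2, Cox8b, Cox8c and Ndufa4l2) had 10 probe sets, with 2 higher and 0 lower calls. Both were of Cox6a2, the heart and skeletal muscle form of the regulatory subunit. On 1417607_at it gave 6.34, 6.49, 6.36 and 6.20 in primary tumours and 7.58, 7.53, 7.98 and 7.87 in metastases, a rise of 1.39 (SE 0.15, adjusted p = 0.0011 by limma). On 1457633_x_at it gave 4.11, 3.85, 3.87 and 3.91 against 5.35, 5.42, 5.64 and 6.12, a rise of 1.70 (SE 0.19, adjusted p = 0.0012) whose size is not exact, since the primary signals lay under the array median. All metastases were above all primary tumours on both. The other muscle forms Cox7a1 and Cox8b had 0.16 and 0.28 and were not called, and Ndufa4l2, Cox4i2, Cox6b2, Cox7b2 and Cox8c had 0.04 to 0.43 with none called. Beside this, 2 of the 26 probe sets of 14 skeletal muscle markers were higher (Tnnt3 and Pygm) and 0 lower, and the list's mean signal was 4.67 to 4.80 in primary arrays and 4.93 to 5.51 in metastasis arrays. All 26 had differences above 0 (0.07 to 0.79, median 0.34), 14 of them in all 4 mice. The largest that were not called were Myh2 (0.79), Ttn (0.78), Myh1 (0.73) and Ckm (0.68), the defining markers Acta1 and Mylpf had 0.28 and 0.54, and 8 of the 14 genes lay under the array median in both groups. The part of muscle RNA in the Cox6a2 result was not tested.

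In complex V, 3 of the 4 lower calls were in the catalytic head and 4 of the 7 higher calls were on small membrane subunits. The 9 probe sets of the F1 head had 2 higher and 3 lower calls and a median of -0.33. The 9 probe sets of the small membrane subunits had 4 higher and 0 lower and a median of 0.40. The 6 probe sets of the proton-carrying c ring had 0 calls and a median of -0.01, and the 7 of the stalk that joins head and membrane had 1 higher and 1 lower.

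Atp5b, the catalytic beta subunit, fell by 2.72 (SE 0.59, adjusted p = 0.014 by limma), or 6.59-fold, on its only probe set 1416829_at. The signals were 12.26, 11.95, 12.58 and 12.54 in primary tumours and 10.95, 10.45, 9.04 and 8.0 in metastases. The groups were apart, and metastases 3 and 4 were lower than 1 and 2. Atp5a1, the alpha subunit of the head, gave 3 answers. It rose by 2.43 (SE 0.27, adjusted p = 0.0012) on 1420037_at, from 6.15, 5.96, 6.04 and 6.36 to 7.96, 8.23, 8.87 and 9.20. It fell by 1.58 (SE 0.33, adjusted p = 0.013) on 1423111_at, from 11.90, 11.90, 12.39 and 12.25 to 11.33, 10.87, 10.16 and 9.75. On 1449710_s_at it had 0.06 (SE 0.21). No direction can be given for the Atp5a1 gene from these probe sets.

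Atp5c1, the gamma subunit that turns within the head, had -1.28 (SE 0.41, adjusted p = 0.061) on 1416058_s_at, from 12.66, 12.10, 12.62 and 12.45 to 11.86, 12.08, 10.41 and 10.37, and 0.01 on 1438809_at. Atp5d, the delta subunit of the head, rose by 0.68 on 1456580_s_at and fell by 0.60 on 1423716_s_at, and neither call passed with the mouse as a block (adjusted p = 0.050 and 0.064). The Atp5d fall was also lost without any of 5 arrays (all 4 primary arrays and metastasis 3; differences -0.62 to -0.55), and the rise without primary array 4 (0.63). Atp5pb, the b subunit of the peripheral stalk, fell by 2.50 (SE 0.43, adjusted p = 0.0058 by limma) on 1426742_at, from 9.27, 9.62, 9.28 and 9.69 to 7.84, 7.65, 6.58 and 5.78. Its probe set 1433562_s_at had -0.09 (SE 0.29). In both stalk and head, then, the probe sets of a gene parted.

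Atp5k, the e subunit of the membrane part that helps join ATP synthases into dimers, was the member whose 3 probe sets were all called higher. They rose by 1.75 (SE 0.26, adjusted p = 0.0032 by limma), 1.17 (SE 0.16) and 1.00 (SE 0.19). On 1434053_x_at the signals were 10.22, 9.94, 9.55 and 9.81 in primary tumours and 11.84, 10.92, 11.99 and 11.75 in metastases, and on the plain probe set 1422525_at 10.95, 10.81, 10.69 and 10.76 against 12.01, 11.29, 11.99 and 11.92. No array of one group entered the range of the other. The remaining higher calls of complex V, chosen after their values were seen, were Atp5j2, the f subunit of the membrane part (0.80 on 1435395_s_at), and Atp5o, which joins the stalk to the head (0.82 on 1437164_x_at). The Atp5j2 call was lost without primary arrays 2, 3 or 4 or metastasis 3 (differences 0.71 to 0.80), and the Atp5o call with the mouse as a block (adjusted p = 0.063) and without any of 7 arrays (all but metastasis 4; 0.68 to 0.90).

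The direction of a member went with the kind of probe set that measured it. In this array design an identifier ending in _at marks probes for a single transcript, _a_at probes that match alternative transcripts of a gene, _x_at probes some of which also match other transcripts, and _s_at probes shared among transcripts. The 85 plain _at probe sets of the members had 7 higher and 14 lower calls and a median of -0.08, beside 7.65% and 11.2% of all plain probe sets. The 66 _a_at and _x_at probe sets had 30 higher and 1 lower call and a median of 0.51, beside 12.6% and 14.3% of all of this kind. The 18 _s_at probe sets had 4 and 2. Among member probe sets with a mean of at least 8 the medians were -0.50 for plain and 0.57 for _a_at and _x_at, and over all probe sets this bright they were -0.61 and -0.02.

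The same held within genes. Of the 82 genes, 33 had 1 probe set and 49 had more, and 33 of the latter had differences on both sides of 0. In 19 genes with both kinds at a mean of at least 8, the _a_at or _x_at probe set had the higher difference in 19 of 19, by a median of 1.24 (0.01 to 2.18), and the signs were opposite in 15. Over all genes with such a pair the order was the same in 380 of 461, or 82.4%, with a median of 1.18. Examples were Ndufs7 (1.52 and -0.35), Ndufb7 (1.35 and 0.05), Cox6c (0.85 and -0.47) and Uqcrb (0.02 and -1.77). Counting all probe sets, 26 genes had only higher calls, 12 only lower, 4 both (Ndufa12, Ndufv1, Atp5a1 and Atp5d) and 40 none.

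**Figure D3:**
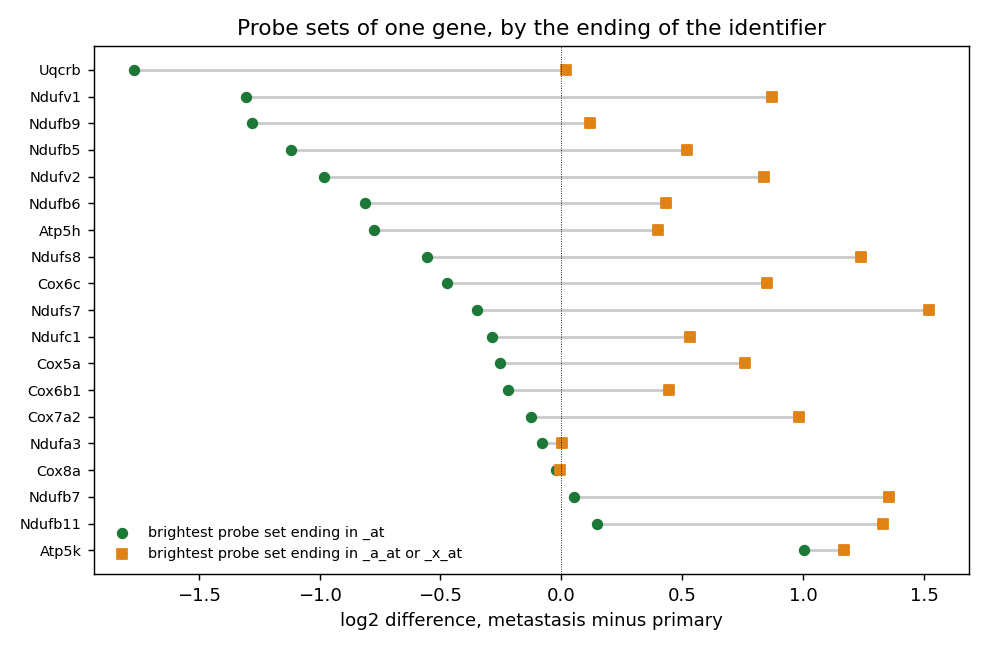
Log2 difference (metastasis minus primary) of the brightest plain _at probe set and the brightest _a_at or _x_at probe set for the 19 member genes that have both at a mean log2 signal of at least 8. The squares (_a_at or _x_at) lie to the right of the circles in 19 of 19 genes, and 15 genes have the pair on opposite sides of 0.

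The control probe sets for RNA length moved with the groups. Actin and Gapdh are each measured at the 3' and the 5' end of the transcript, and the drop from the 3' to the 5' signal grows when RNA or labelled product is short. For actin it was 1.49 ± 0.44 log2 units (SD, n = 4) in primary and 5.33 ± 0.76 (SD, n = 4) in metastasis arrays, and for Gapdh 2.15 ± 0.48 and 5.22 ± 0.71 (SD, n = 4). The groups did not overlap (two-sided exact permutation test, p = 0.0286 for each, the smallest that 4 against 4 arrays allow). Metastases 3 and 4 had the larger drops, 5.95 for actin against 4.70 in metastases 1 and 2, and 5.80 against 4.64 for Gapdh. The part of RNA length in the differences between groups and between probe sets was not tested.

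The falls also differed in size between the mice. Over the 42 plain member probe sets with a mean of at least 8, the median difference was -0.19 in mice 1 and 2 and -1.05 in mice 3 and 4, and 34 of the 42 were lower in the latter pair. Over all 3893 plain probe sets this bright, members or not, the medians were -0.19 and -0.98. The 56 _a_at and _x_at member probe sets this bright had medians of 0.62 and 0.60. Over all 2060 of that kind they were 0.11 and -0.11. With only mice 1 and 2, 0 members were called by limma (53 at an unadjusted p under 0.05; 0 of all 34945 probe sets passed), and with only mice 3 and 4, 31 were higher and 35 lower. Without mouse 3 there were 19 higher and 1 lower, and without mouse 4 there were 24 and 6. In mice 1 and 2 alone Sdhd had -2.04, Atp5b -1.40, Atp5pb -1.70 and Uqcrh -1.43, and Ndufa13 had 1.31, Cox6a2 1.14 and 1.40, and Atp5k 1.31.

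**Figure D4:**
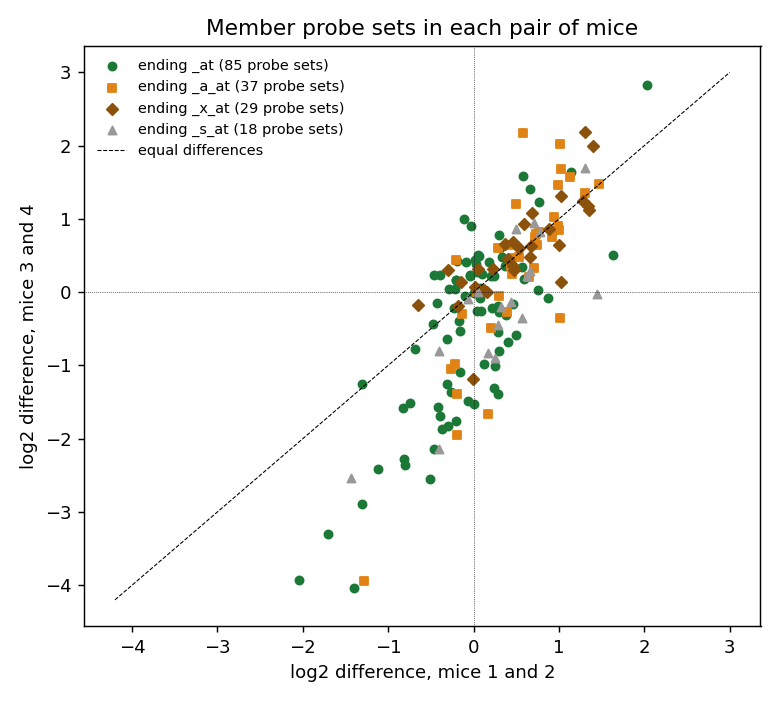
Log2 difference of each member probe set in mice 1 and 2 (x axis, mean of the pair) and in mice 3 and 4 (y axis), by the ending of its identifier; the dashed line marks equal differences. Of the 42 plain probe sets with a mean log2 signal of at least 8, 34 lie under the line, lower in mice 3 and 4; Ndufb9 (1452184_at, -1.31 and -1.25) is a called fall that does not.

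Other genes linked to the chain were called in both directions, as were 8.72% (higher) and 11.9% (lower) of all probe sets. The lists were not tested against these shares. Of 70 probe sets of 44 assembly factors 6 were higher and 9 lower (median -0.04), with Surf1, which helps assemble complex IV (1.27), and Foxred1, which helps assemble complex I (-1.71, 1 of 4 mice higher), at the ends of the called ones. Atpaf1, an assembly factor of the ATP synthase, had a larger difference on 1 of 2 probe sets (1.45, SE 0.51, 4 of 4 mice higher), which was not called (adjusted p = 0.078 by limma). Cyc1, the electron carrier cytochrome c (Cycs) and the ATP synthase inhibitor Atpif1 had 1 higher and 0 lower of 8, the call being Atpif1 (0.62). Cyc1 itself had a difference of 0.27 (SE 0.26) on its only probe set and was not called. Of 48 probe sets of 18 regulators of mitochondrial biogenesis 7 were higher and 5 lower (median -0.01), with Gabpb2 (2.09), a partner subunit of GABP, and Nrip1 (-2.48), a corepressor, at the ends of the called ones. The size of this Gabpb2 rise is not exact, since its primary mean (4.81) lay under the array median. The other Gabpb2 probe sets had 0.81 (called), -0.02 and -0.05 (not called). The other GABP genes had differences below 0. Gabpb1, another partner subunit, had -1.47 (called, adjusted p = 0.0018 by limma) and -1.03 (not called). Gabpa had -1.98 and -0.75, neither called, with 0 of 4 mice higher on both. The 5 probe sets of Ppargc1a, the coactivator PGC-1alpha, had differences of 1.59 to 2.49 and were higher in 4 of 4 mice, but none was called, and on the probe set with the largest difference the metastases ran from 3.79 to 9.08 against 3.20 to 3.36 in primary tumours. A list of import and outer membrane genes that also held Slc25a4, Slc25a5, Phb2 and Cs had 4 higher and 6 lower of 47 (median -0.41). By the brightest probe set of each of its 14 genes the median was 0.28. Cs and Phb2 gave 1 higher call each and Slc25a5 gave 1 lower call. Tomm22, a receptor of the import pore, was called in both directions, 1.12 on 1434420_x_at and -1.14 on 1429103_at. The channel Vdac1 fell by 2.92 on 1415998_at. Its other 4 probe sets were not called and had -0.70 (1437192_x_at, 0 of 4 mice higher), -0.06, 0.05 and 0.21.

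The isolated cells were checked against marker lists. Of 10 epithelial genes 3 were lower and 0 higher in metastasis. The list mean was 7.95 to 8.60 in primary and 6.04 to 7.68 in metastasis arrays. Of the 13 epithelial probe sets 12 had differences below 0, 8 of them in all 4 mice, and the median was -1.48. Genes of neurons were higher for 10 of 10, of granulocytes for 7 of 10 and of B lineage cells for 6 of 9. Those of macrophages were lower for 8 of 10. Over all genes 9.72% were higher and 12.1% lower. The median differences of the listed genes were 4.13 for neurons, 3.31 for granulocytes, 3.39 for B lineage cells and -3.17 for macrophages. The neuron list mean was 4.68 to 4.74 in primary and 8.16 to 9.83 in metastasis arrays. Adipocyte and erythroid lists had 0 calls by limma. The part of other cells in the members' differences was not tested.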

How the data were processed

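RNA of 4 primary tumours and 4 bone metastases was amplified in 2 rounds, per the labels, and hybridised to 8 one-colour arrays. The deposited values are log2 signals from RMA, as the submitters' processing notes state (version not given in the sources used here). RMA corrects background, quantile-normalizes arrays and summarises probes. Array medians were 5.16 to 5.17 in primary and 5.23 to 5.42 in metastasis arrays.

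Gene symbols came from GEO's platform annotation. Of 45101 probe sets, 64 were controls, 932 had several symbols and 9160 none, and these were left out of the tests, among them 10 with a respiratory chain symbol beside another. Bone metastasis minus primary was fitted with limma 3.58.1 (R 4.3.3; lmFit, eBayes, no block, no filter on dim values, two-sided) on 34945 probe sets, and on the brightest probe set of 18193 genes, with Benjamini-Hochberg adjustment over each and a threshold of 0.05. The fit was tested on simulated data. Of the members, 24 probe sets lay under the array median in both groups. Promoter and control values were computed in Python 3.11.15 (pandas 2.3.3, numpy 2.4.6, scipy 1.17.1); no read depth applies to arrays, so the number of arrays limits the precision.

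Probe sets were named by rule: in each complex up to 2 rises and 2 falls that were largest among calls of 1 direction in all 4 mice, the catalytic subunits, the tissue isoforms with their counterparts, genes called in both directions, and in each other list the largest rise and fall. The members and lists were chosen with earlier results of these data known. Same-numbered arrays are paired because both tumours came from 1 mouse per the series' design text; their deviations from the group means correlated at 0.16, -9.2e-06, 0.025 and -0.10 for mice 1 to 4. Alternatives covered scaling, filters, moderation, array weights, the block, the choice of probe set and leaving out arrays or mice.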

Additional observations from a re-analysis of the deposited data

Results flagged for a closer look

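Of 196 groups of 4 arrays looked at, those of the named and the called member probe sets and of the controls, 7 had an array far from the other 3 by Dixon's test at its 95% level, and chance gives about 1 in 20. Ndufs3 (1423737_at) was 9.77 in primary tumour 2, where the other primary tumours had 10.34 to 10.40. Ndufa12 was 5.54 on 1425919_at in primary tumour 4, where the others had 4.80 to 4.90. On 1455806_x_at Ndufa12 was 10.75 in primary tumour 1, where the others had 10.10 to 10.20. Metastasis 2 was the lowest of the metastases for Ndufb7 (12.12 on 1416417_a_at, the others 12.84 to 12.95) and for Atp5k, with 11.29 on 1422525_at (others 11.92 to 12.01) and 11.41 on 1450640_x_at (others 11.93 to 12.02). Metastasis 4 was the highest for Cox6c (12.79 on 1434491_a_at, the others 12.18 to 12.28).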

How the results depend on the processing

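Of the 58 called member probe sets 0 changed sign under any alternative fitted to probe sets, and 32 passed without any single array. With the mouse as a replicate block 33 member probe sets were higher and 11 lower, against 41 and 17, 14 of the 58 calls were lost, and the lower genes were 5 instead of 8; the block changed no other call of a member probe set. Leaving out 1 array in turn gave 32 to 65 called members, 25 to 40 higher and 7 to 27 lower, and 4 to 14 lower genes. With mice 1 and 2 alone, members and genes called were 0 in either direction by limma (53 members at an unadjusted p under 0.05). With mice 3 and 4 alone 35 members and 20 genes were lower. Without mouse 2 there were 10 lower; without mouse 3, 20 called (19 higher, 1 lower); without mouse 4, 30 (24 and 6). Without metastases 1 and 3, 25 were higher. Leaving out _x_at and _s_at probe sets gave 38 called and 23 higher, plain _at probe sets alone 21 (7 higher), _a_at and _x_at alone 31 (1 lower), and a 2-fold limit 34 (20 higher). By the mean of a gene's probe sets 14 genes were higher, and by the most variable probe set 14 were lower. Settings that leave out arrays, mice or probe sets have fewer of them by construction; for the rest the cause was not tested.

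The median of complex I was 0.49 with 75th percentile scaling, 0.088 without _x_at and _s_at, -0.12 on plain _at, 0.69 on _a_at and _x_at and 0.49 by the brightest probe set of a gene. That of complex II was -0.14 with quantile normalization, -0.21 with 75th percentile scaling, -0.46 to -0.24 over single arrays left out, -0.20 in mice 1 and 2, -0.19 in mice 3 and 4, -0.25, -0.29 and -0.19 without mouse 2, 3 or 4, and -0.71 both without _x_at and _s_at and by the brightest probe set. Complex III had 0.29 with 75th percentile scaling and -0.60 at a mean of at least 8. Complex IV had 0.43 with 75th percentile scaling, 0.39 at or above the median signal, 0.35 at a mean of at least 8, 0.064 on plain _at, 0.44 on _a_at and _x_at and 0.43 by the brightest probe set. Complex V had -0.26 in mice 3 and 4 and 0.40 on _a_at and _x_at. The alternatives on mice singly left out and on plain or _a_at and _x_at probe sets were chosen after seeing the data.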
